A study of Mus musculus with 12 samples.

Results

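The genes described here encode the contractile apparatus of smooth muscle, which in the testis is carried by the peritubular myoid cells around the seminiferous tubules and by the muscle cells of blood vessels. They are 10 of the 18193 genes named on the array, and their members were chosen as every probe set annotated to exactly 1 of Acta2, Actg2, Myh11, Myl9, Mylk, Lmod1, Tagln, Cnn1, Smtn and Des. This gave 16 probe sets, none of them shared with another gene. The samples were Sohlh1-/- testes, Sohlh2-/- testes and wild-type testes, 4 arrays each, all from postnatal day 7 mice of a C57BL/6, 129S5, SvEvBrd hybrid background. SOHLH1 and SOHLH2 are transcription factors of the germline. Neither knockout is described in the labels as limited to a cell type, each array was made from a pool of 3 testes of different animals, and arrays are named by the genotype and number in their label.

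Contraction of smooth muscle starts when calcium and calmodulin activate myosin light chain kinase, which phosphorylates the regulatory light chain of myosin and lets myosin pull on actin filaments. Peritubular myoid cells use this machinery to squeeze the tubule and move sperm and fluid, and the same genes are standard markers of the cells. Many smooth muscle genes are switched on by serum response factor (SRF), which binds a DNA element called the CArG box together with the coactivator myocardin. Several members, Acta2 first among them, are also made in vascular smooth muscle and in pericytes, so in whole testis their signal is a sum over these cells. In such bulk tissue, fewer cells of a type and less RNA per cell cannot be told apart.

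The 250 bases before the start of Acta2 and Myl9 are shown because they hold the CArG boxes found among the members, and they give the sites at which SRF could be looked for in these genes. They come from RefSeq with build GRCm38.p6, whose promoter table matched 7 of the 10 members (Acta2, Myl9, Mylk, Lmod1, Cnn1, Smtn and Des). Capitals mark CArG boxes, that is CC, then 6 bases, then GG, where all 6 bases are A or T (exact) or 5 of them are (near). The motif reads the same on both strands, so 1 search covered both, and an exact and a near box cannot be the same stretch. The Acta2 sequence is chr19:34255374-34255623 on the minus strand, and the Myl9 sequence is chr2:156775214-156775463 on the plus strand.
Acta2: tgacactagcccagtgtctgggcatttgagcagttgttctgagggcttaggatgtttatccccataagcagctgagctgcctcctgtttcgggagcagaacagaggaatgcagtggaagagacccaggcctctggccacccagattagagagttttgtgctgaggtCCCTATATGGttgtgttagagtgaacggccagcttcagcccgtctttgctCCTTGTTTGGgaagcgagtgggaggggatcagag
Myl9: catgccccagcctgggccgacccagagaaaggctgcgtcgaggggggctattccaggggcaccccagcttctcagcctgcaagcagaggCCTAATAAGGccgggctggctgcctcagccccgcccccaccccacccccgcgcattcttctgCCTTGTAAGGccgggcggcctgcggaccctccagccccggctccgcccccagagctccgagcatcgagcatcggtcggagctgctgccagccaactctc
The near boxes of Acta2 begin 84 and 34 bases before the start. Myl9 has an exact box that begins 161 bases before the start and a near box that begins 99 bases before it. Over the full window of 300 bases, which adds 50 bases from the start on, 1 of 7 member promoters held an exact box and 2 of 7 held a near one. Of all 32851 promoters in the table, 1.63% held an exact box and 8.5% a near one. The other 5 matched members had neither in this window, which says only that these letters are not there.

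Signals are MAS5 intensities on a linear scale, and differences are on a log2 scale after an offset of 14.2 was added to each value. A probe set was tested with limma if its signal lay above 48.6 on at least 4 arrays, which 13 of the 16 member probe sets and 28694 of 45037 non-control probe sets did. Array medians were 76.6 to 90.7. The targeted genes went against the label on 2 arrays. The array labelled Sohlh1 KO 5 had a Sohlh1 signal of 595 and a Sohlh2 signal of 94.4, whereas the other 3 arrays of that label had 50.2 to 104 for Sohlh1 and 1556 to 1783 for Sohlh2. The array labelled Sohlh2 KO 1 had 126 for Sohlh1 and 1847 for Sohlh2, whereas the other 3 arrays of that label had 465 to 563 and 73.2 to 157. Wild-type arrays had 1125 to 1233 for Sohlh1 and 885 to 1200 for Sohlh2, and it is not known here whether the probe sets lie within the deleted parts. The arrays labelled Sohlh1 KO 2 and Sohlh2 KO 1 also had high 3' to 5' ratios of the β-actin control probe sets, a sign of RNA quality, at 2.10 and 3.56 against 1.30 to 1.45 on the other 10 arrays. Their Gapdh ratios were 1.17 and 1.63 against 0.744 to 0.818. Both kinds of array were left out in turn, with results given below.

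No contractile gene passed the test in either knockout. Actg2 and Tagln had the smallest p-values, and their mean signals were 81.1% and 84.5% of wild type in Sohlh1 KO and 72.2% and 87.0% of wild type in Sohlh2 KO. Of the 13 tested probe sets, 0 passed an adjusted p of 0.05 in Sohlh1 KO against wild type, where 2.09% of all probe sets tested did. In Sohlh2 KO against wild type 0 of 13 passed, where 1.55% of all did. At an unadjusted p under 0.05 limma gave 2 of 13 in Sohlh1 KO, both lower (14.9% of all probe sets, 7.95% lower), and 2 of 13 in Sohlh2 KO, both lower (13.5% of all, 7.06% lower). They were Actg2 and Tagln each time.

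The log2 difference lay below 0 for 11 of 13 member probe sets in Sohlh1 KO, against 50.5% of all probe sets tested, and for 9 of 13 in Sohlh2 KO, against 50.6% of all. The members' median was -0.10 in Sohlh1 KO and -0.08 in Sohlh2 KO, while the median over all probe sets was 0.00 in both (-0.00273 and -0.00377). Without the 2 arrays with the high ratio (Sohlh1 KO 2 and Sohlh2 KO 1) the members' medians were -0.03 and -0.03. Most member probe sets still lay below 0 in both knockouts then. Both comparisons use the same 4 wild-type arrays, so their values are not independent. The 95% interval of a member's difference reached a median of 0.27 to each side on the log2 scale.

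**Figure D1:**
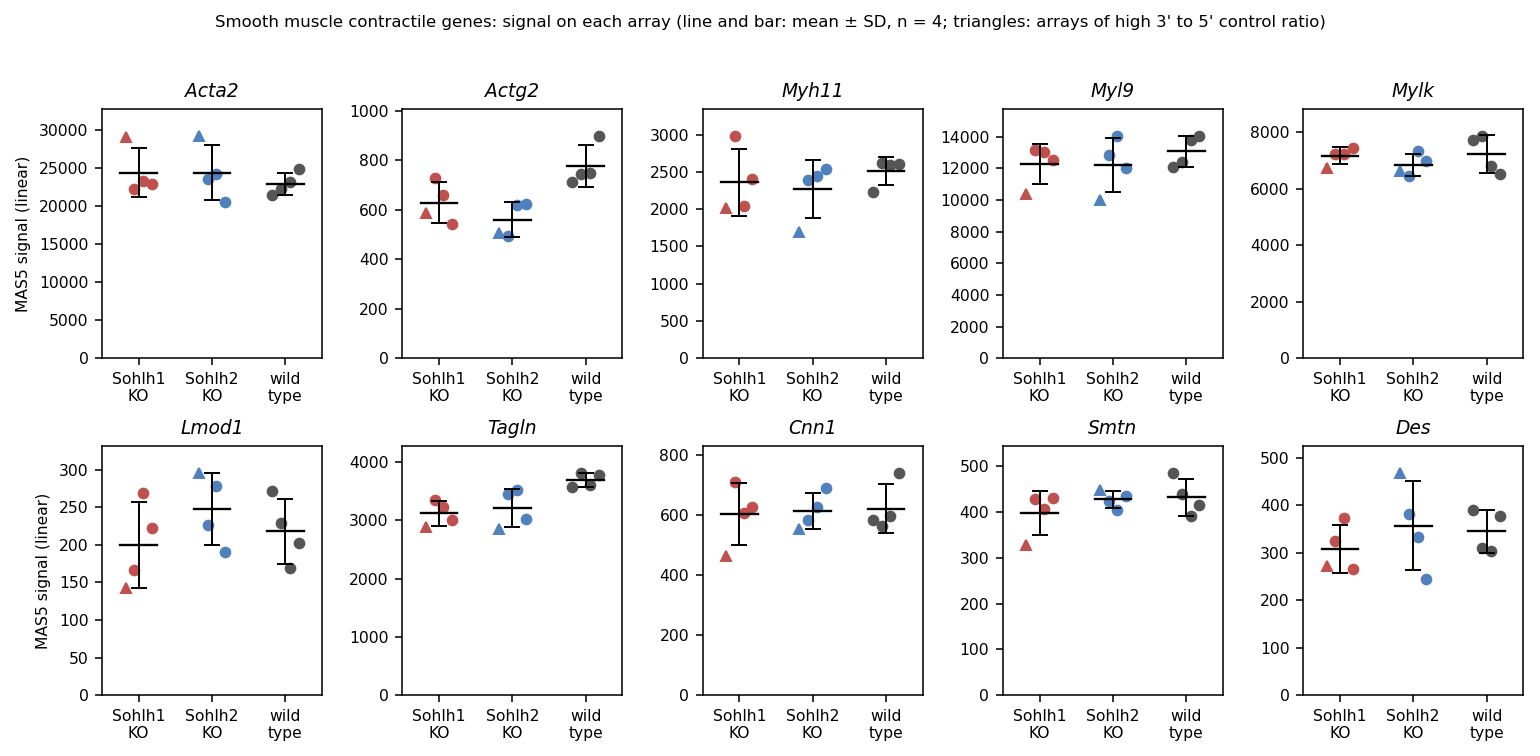
MAS5 signal (linear axis from 0) of each contractile gene's brightest probe set on every array, by genotype; points are arrays, triangles the 2 arrays with the high 3' to 5' ratio, lines and bars the mean ± SD (n = 4). Knockout and wild-type points overlap in most panels; for Tagln all 8 knockout arrays lie below all 4 wild-type arrays, and for Actg2 all 4 Sohlh2 KO arrays do.

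Of the actins, Acta2 encodes the smooth muscle alpha-actin that is the usual marker of peritubular myoid cells. Its probe set 1416454_s_at read 29176, 22221, 23357 and 22990.5 in Sohlh1 KO 2, 3, 4 and 5, 29284, 23658, 24303 and 20582 in Sohlh2 KO 1, 3-1, 4 and 5, and 21498, 22312, 23230.2 and 24898 in wild type 3, 4, 5 and 6. The groups overlapped, and the highest signal in each knockout was on its array with the high ratio. The log2 difference was 0.08 in Sohlh1 KO (95% interval -0.16 to 0.32, adjusted p = 0.775) and 0.08 in Sohlh2 KO (-0.16 to 0.32, adjusted p = 0.802). Without the 2 arrays with the high ratio it was -0.01 in both knockouts. A further Acta2 probe set, 1444105_at, averaged 156 ± 21.6 in Sohlh1 KO, 126 ± 35.8 in Sohlh2 KO and 154 ± 17.1 in wild type (SD, n = 4 each), with adjusted p = 0.982 and 0.555. The third, 1456658_at, lay above 48.6 on 3 of the 12 arrays and was not tested.

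Actg2 encodes the smooth muscle gamma-actin, best known from gut and bladder. Its signal was 587, 730.1, 659 and 545 in Sohlh1 KO 2, 3, 4 and 5, and 508, 493, 618 and 625 in Sohlh2 KO 1, 3-1, 4 and 5. Wild type 3, 4, 5 and 6 had 712, 747, 749.8 and 899.8. All 4 Sohlh2 KO arrays lay below all 4 wild-type arrays, while 1 Sohlh1 KO array reached into the wild-type range. The means were 630.2 ± 81.6 in Sohlh1 KO, 561 ± 70.0 in Sohlh2 KO and 777 ± 83.7 in wild type (SD, n = 4 each). The log2 difference was -0.46 in Sohlh2 KO (95% interval -0.73 to -0.19, adjusted p = 0.0945), a fold of 0.726, and -0.30 in Sohlh1 KO (-0.57 to -0.03, adjusted p = 0.282). Neither passed the threshold over all probe sets. With the brightest probe set of each gene as the unit, the Sohlh2 KO difference passed (adjusted p = 0.0458), where 3.74% of 13702 genes did and 2.15% were lower. With the mean of a gene's probe sets as the unit, over the same number of genes, it did not pass (adjusted p = 0.0537), and over the other alternatives its adjusted p was 0.0807 to 0.694. In Sohlh1 KO none of the 10 genes passed that way, where 4.41% of all did. Without the 2 arrays of doubted label the difference in Sohlh2 KO was -0.42 (adjusted p = 0.141). Leaving out the arrays with the high ratio must give the same difference, because both settings drop the same Sohlh2 KO array, Sohlh2 KO 1. Without wild type 6, the highest array for Actg2, its adjusted p in Sohlh2 KO was 0.277. Of all probe sets tested, 8.82% had Sohlh2 KO and wild-type groups that did not overlap, and 4.69% had Sohlh2 KO lower.

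The motor is made of heavy and light chains of myosin. Myh11, the smooth muscle myosin heavy chain, read 2018, 2982, 2039.5 and 2400.1 in Sohlh1 KO 2, 3, 4 and 5, and 1691, 2388, 2449 and 2536 in Sohlh2 KO 1, 3-1, 4 and 5. Wild type 3, 4, 5 and 6 had 2228, 2618, 2595 and 2605. The groups overlapped, and the lowest of the 12 arrays was Sohlh2 KO 1. The log2 difference was -0.10 in Sohlh1 KO (95% interval -0.41 to 0.20, adjusted p = 0.778) and -0.16 in Sohlh2 KO (-0.47 to 0.14, adjusted p = 0.667), and without the arrays with the high ratio it was -0.04 and -0.03. A further Myh11 probe set, 1418122_at, lay above 48.6 on 1 array, in wild type, and was not tested.

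Myl9 is the regulatory light chain that the kinase phosphorylates. Its signals were 10409, 13161, 13012 and 12551 in Sohlh1 KO 2, 3, 4 and 5, 10014, 12845, 14059 and 12014 in Sohlh2 KO 1, 3-1, 4 and 5, and 12105, 12407, 13801 and 14065 in wild type 3, 4, 5 and 6. The 2 arrays with the high ratio gave the lowest values, and the other 6 knockout arrays lay between 12014 and 14059, beside 12105 to 14065 in wild type. The difference was -0.10 in Sohlh1 KO (95% interval -0.33 to 0.14, adjusted p = 0.729) and -0.11 in Sohlh2 KO (-0.34 to 0.13, adjusted p = 0.719).

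Mylk encodes the kinase itself and was read by 3 probe sets, which did not give the same picture. Probe set 1425506_at had 6736, 7216, 7231 and 7448 in Sohlh1 KO 2, 3, 4 and 5, 6626, 6428, 7322 and 6967 in Sohlh2 KO 1, 3-1, 4 and 5, and 7725, 7861, 6789 and 6514 in wild type 3, 4, 5 and 6. The groups overlapped, with differences of -0.01 in Sohlh1 KO (95% interval -0.19 to 0.17) and -0.08 in Sohlh2 KO (-0.25 to 0.10). Probe set 1425505_at likewise differed by -0.08 in Sohlh1 KO and 0.06 in Sohlh2 KO (adjusted p = 0.736 and 0.835).
The third Mylk probe set, 1425504_at, had the largest mean differences of all members, -0.41 in Sohlh1 KO (95% interval -0.98 to 0.15, adjusted p = 0.492) and -0.47 in Sohlh2 KO (-1.03 to 0.09, adjusted p = 0.467). Its signals were 259, 557, 498 and 396 in Sohlh1 KO 2, 3, 4 and 5, 215, 396, 516 and 554 in Sohlh2 KO 1, 3-1, 4 and 5, and 529, 519, 599 and 569 in wild type 3, 4, 5 and 6. The lowest array of each knockout was the one with the high 3' to 5' ratio. Without those 2 arrays the differences were -0.20 and -0.19 (adjusted p = 0.506 and 0.599). The signal of this probe set as a share of that of 1425506_at was 0.0385 on Sohlh1 KO 2 and 0.0324 on Sohlh2 KO 1, and 0.0531 to 0.0883 on the other 10 arrays. The part of RNA quality in this result was not tested beyond these values.

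**Figure D2:**
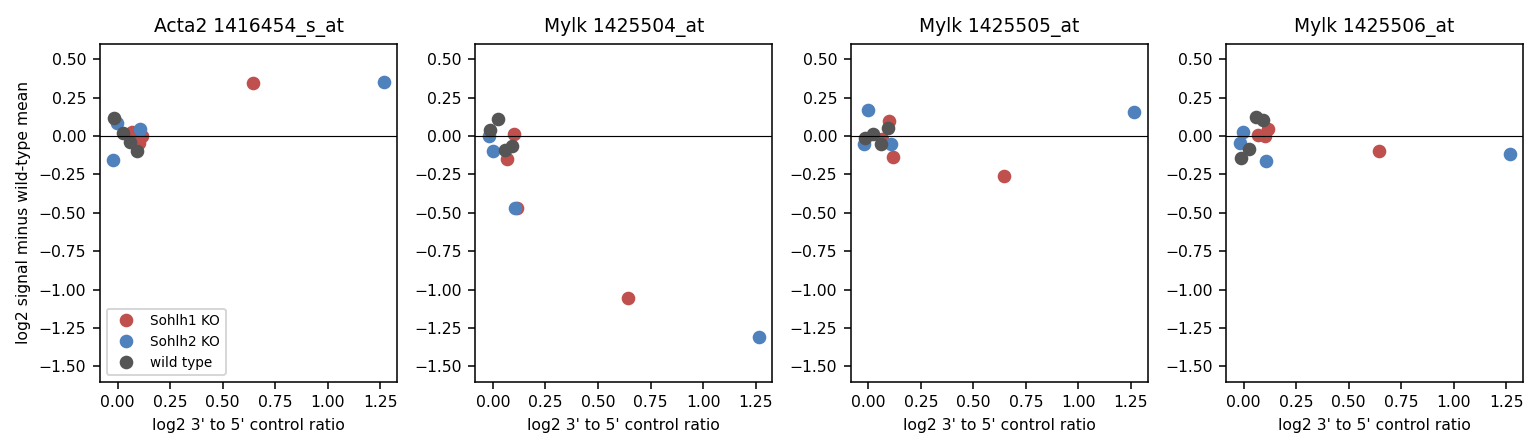
Log2 signal minus the wild-type mean (vertical axis) against the log2 of the 3' to 5' control ratio, averaged over β-actin and Gapdh (horizontal axis), for 1 Acta2 and 3 Mylk probe sets; each point is an array. The 2 arrays at the right are Sohlh1 KO 2 and Sohlh2 KO 1, which are highest for Acta2 and lowest for Mylk 1425504_at but lie among the others for Mylk 1425506_at.

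Lmod1, leiomodin, helps actin filaments of smooth muscle to form. Its signals were 142, 166, 269 and 223 in Sohlh1 KO 2, 3, 4 and 5, 296, 226, 278 and 190.1 in Sohlh2 KO 1, 3-1, 4 and 5, and 271, 229, 169 and 203 in wild type 3, 4, 5 and 6. The groups overlapped widely. The mean differences were -0.13 in Sohlh1 KO (95% interval -0.58 to 0.31) and 0.17 in Sohlh2 KO (-0.28 to 0.62). Without the arrays with the high ratio they were 0.00 (0.00318) and 0.09. Sohlh2 KO minus Sohlh1 KO was 0.31 (-0.14 to 0.76, unadjusted p = 0.164, adjusted p = 1).

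Among the proteins that bind actin filaments, Tagln, transgelin or SM22, is an early marker of smooth muscle. Its signals were 2889, 3358, 3233 and 3009 in Sohlh1 KO 2, 3, 4 and 5, 2849, 3454, 3527 and 3024 in Sohlh2 KO 1, 3-1, 4 and 5, and 3573, 3818, 3601 and 3780.4 in wild type 3, 4, 5 and 6. All 8 knockout arrays lay below all 4 wild-type arrays, although the gap between the highest knockout array and the lowest wild-type array was small. The means were 3122 ± 212 in Sohlh1 KO, 3214 ± 329 in Sohlh2 KO and 3693 ± 124 in wild type (SD, n = 4 each). The log2 difference was -0.24 in Sohlh1 KO (95% interval -0.43 to -0.05, adjusted p = 0.202) and -0.20 in Sohlh2 KO (-0.39 to -0.02, adjusted p = 0.326), and neither passed the threshold. Without the 2 arrays with the high ratio, which were the lowest of their groups, the differences were -0.21 (adjusted p = 0.174) and -0.15 (adjusted p = 0.403). Groups did not overlap for 1 of 13 members in Sohlh1 KO (Tagln) and for 2 of 13 in Sohlh2 KO (Tagln and Actg2). Of all probe sets tested, 11.2% had no overlap in Sohlh1 KO (6.08% lower) and 8.82% in Sohlh2 KO (4.69% lower). The share of all probe sets with all 8 knockout arrays below all 4 wild-type arrays was not counted.

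Cnn1, calponin, which restrains the myosin ATPase, and Smtn, smoothelin, a marker of fully contractile cells, changed in neither knockout. Cnn1 had 465, 712, 609 and 629 in Sohlh1 KO 2, 3, 4 and 5, 554, 586, 628 and 691 in Sohlh2 KO 1, 3-1, 4 and 5, and 586, 563, 598 and 742 in wild type 3, 4, 5 and 6. Its differences were -0.05 in Sohlh1 KO (95% interval -0.35 to 0.24, adjusted p = 0.902) and -0.01 in Sohlh2 KO (-0.31 to 0.28, adjusted p = 0.978). The lowest values of both knockouts were again on the arrays with the high ratio, and without them the differences were 0.07 and 0.03. Smtn had 328, 427, 407 and 430.3 in Sohlh1 KO 2, 3, 4 and 5, 447, 423, 404 and 434 in Sohlh2 KO 1, 3-1, 4 and 5, and 485, 438, 390.1 and 414 in wild type 3, 4, 5 and 6. Its differences were -0.12 in Sohlh1 KO (-0.37 to 0.14, adjusted p = 0.695) and -0.01 in Sohlh2 KO (-0.27 to 0.24, adjusted p = 0.978). Without the arrays with the high ratio, of which Sohlh1 KO 2 was the lowest of all 12, they were -0.03 and -0.03. A p that misses the threshold does not show that the groups were alike, and these intervals are the sizes of change that the arrays leave possible.

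Des encodes desmin, the intermediate filament of muscle cells, which peritubular cells carry beside actin. Its signals were 273, 324, 373 and 265 in Sohlh1 KO 2, 3, 4 and 5, 469, 383, 334 and 245 in Sohlh2 KO 1, 3-1, 4 and 5, and 391, 311, 303 and 378 in wild type 3, 4, 5 and 6. The groups overlapped, and Sohlh2 KO held both the highest and the lowest of the 12 arrays. The differences were -0.16 in Sohlh1 KO (95% interval -0.55 to 0.23, adjusted p = 0.728) and 0.02 in Sohlh2 KO (-0.37 to 0.41, adjusted p = 0.979). Without the arrays with the high ratio they were -0.11 and -0.12, so the sign in Sohlh2 KO turned when Sohlh2 KO 1, the highest of the 12 arrays, was left out. Des probe set 1426732_at lay above 48.6 on 2 arrays and was not tested.

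**Figure D3:**
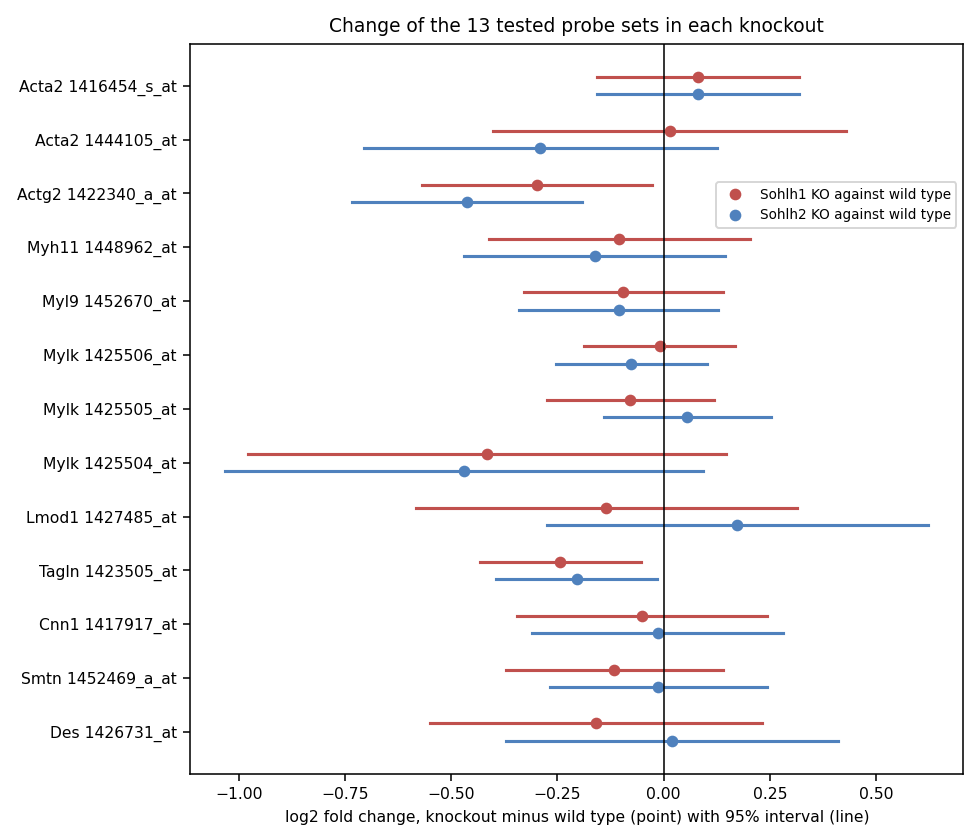
Log2 fold change of each tested probe set in Sohlh1 KO and Sohlh2 KO against wild type (points), with 95% intervals from the moderated standard error (lines). Intervals of Actg2 and Tagln lie below 0 in both knockouts before adjustment, and those of the other 11 probe sets include 0.

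The knockouts were also compared with each other. In Sohlh2 KO against Sohlh1 KO 0 of 13 member probe sets passed, as did 0% of all probe sets, 0 of 13 had an unadjusted p under 0.05 where 2.67% of all did, and 7 of 13 differences lay below 0. The differences spanned -0.30 for Acta2 1444105_at to 0.31 for Lmod1, with a median of 0.00 (-0.00165). Actg2 differed by -0.16 (95% interval -0.43 to 0.11) and Tagln by 0.04 (-0.15 to 0.23). All groups overlapped for every member, where 1.9% of all probe sets did not overlap. Without the 2 arrays of doubted label 9 of the 28694 probe sets tested passed, and 0 of the 13 members did.

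For several members the same 2 arrays lay at the edge of the range. Both arrays with the high ratio lay below all other 10 arrays for Myh11, Myl9, Mylk 1425504_at, Tagln and Cnn1, which are 5 of the 13 tested probe sets, where 12.7% of all probe sets did so. Both lay above all others for 1 of 13, Acta2 1416454_s_at, where 8.39% of all did. For Lmod1 both lay outside the range of the other 10 arrays (166 to 278) but on opposite sides, at 142 on Sohlh1 KO 2 and 296 on Sohlh2 KO 1. The remaining 6 probe sets had at least 1 of these arrays within the range of the other 10. With both arrays left out, 0 of 13 members passed in each knockout, and the same was true without the 2 arrays of doubted label and without all 3 of these arrays. Wild type 6, without a high ratio, was the lowest or highest of the 12 arrays for 3 of 13 members and 28.3% of all probe sets. This share of all was 35.7% for Sohlh2 KO 1, 22.2% for Sohlh1 KO 2 and 10.1% to 17.9% for the remaining arrays.

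**Figure D4:**
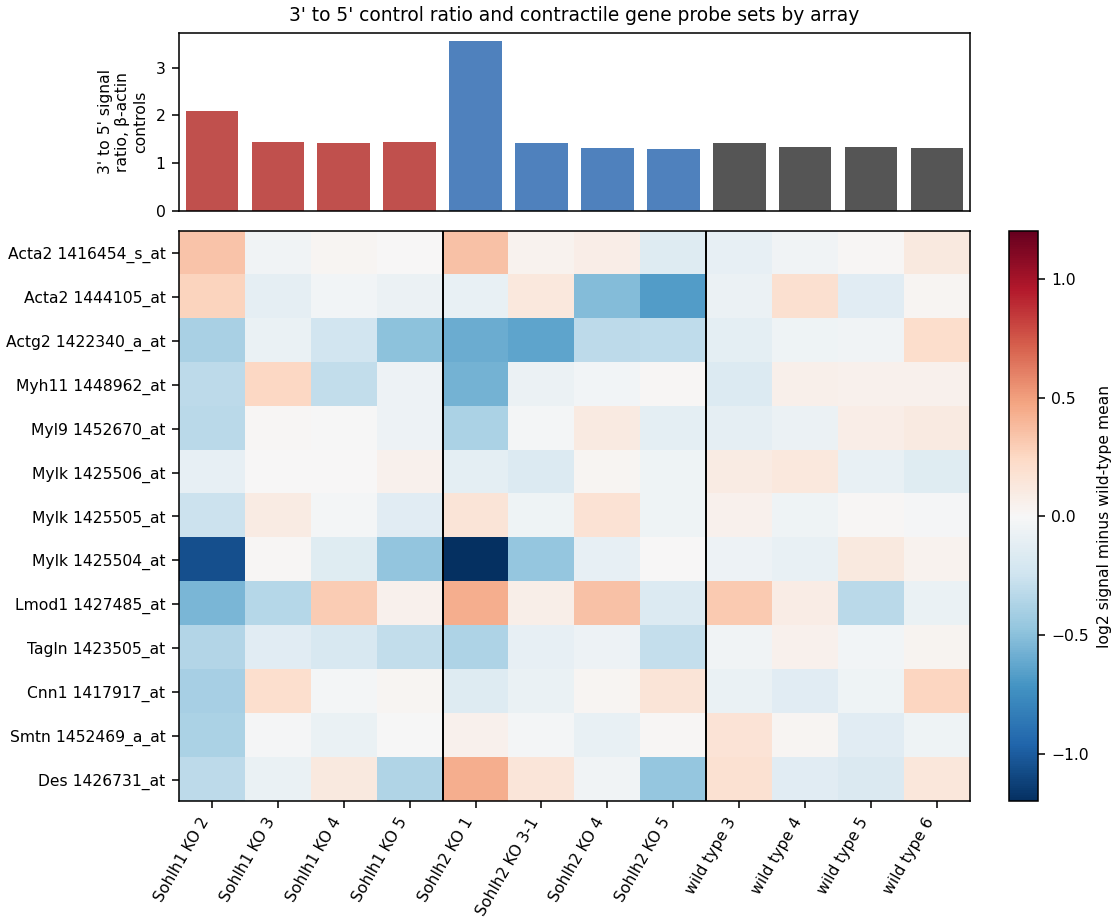
Top, 3' to 5' signal ratio of the β-actin control probe sets on each array (bars from 0); bottom, log2 signal minus the wild-type mean of the 13 tested contractile probe sets, red above and blue below wild type, with arrays grouped by genotype. The columns Sohlh1 KO 2 and Sohlh2 KO 1, whose ratios are 2.10 and 3.56, are red for Acta2 1416454_s_at and blue for Myh11, Myl9, Mylk 1425504_at and Tagln.

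Nor did any other gene of the contractile pathway pass the test. Of 28 partners of the contractile apparatus (tropomyosins, caldesmon, filamin, phosphatase subunits and others) 24 were tested at their brightest probe set, and 0 passed in either knockout. Their median difference was -0.03 in Sohlh1 KO and 0.09 in Sohlh2 KO. Among those with the smallest p in Sohlh1 KO were Synm (0.30, adjusted p = 0.323), Myl6 (0.38, 0.37) and Flna (-0.21, 0.413), given as log2 difference and adjusted p. In Sohlh2 KO they were Synpo2 (0.56, 0.252), Ppp1r14a (-0.30, 0.412), Tpm2 (0.30, 0.417) and Synm (0.26, 0.427). Synpo2, synaptopodin-2, links actin to the Z-disc and to dense bodies, and Ppp1r14a inhibits the myosin phosphatase.

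Of 15 regulators of smooth muscle genes 13 were tested, and 0 passed in either knockout. The TGF-beta receptor Tgfbr1 came nearest in both, at 1874 ± 94.6 in Sohlh1 KO, 1835 ± 27.6 in Sohlh2 KO and 2252 ± 135 in wild type (SD, n = 4 each). Its differences were -0.26 (adjusted p = 0.115) and -0.29 (adjusted p = 0.0892). Srf, which encodes the factor known to bind CArG boxes, averaged 1126 ± 195 in Sohlh1 KO, 1107 ± 205 in Sohlh2 KO and 904 ± 98.3 in wild type, with differences of 0.30 (adjusted p = 0.341) and 0.28 (adjusted p = 0.425). Klf4, which represses contractile genes, differed by -0.23 (adjusted p = 0.376) and -0.28 (adjusted p = 0.292). Next to these by p were Smad3 in Sohlh1 KO (0.15, adjusted p = 0.506) and, in Sohlh2 KO, Hey2 (-0.91, adjusted p = 0.361), at 23.8 ± 17.1 in Sohlh2 KO and 52.6 ± 16.3 in wild type. Of 8 hedgehog genes, by which Sertoli cells signal to peritubular and Leydig precursors, 7 were tested and 0 passed, the ligand Dhh differing by 0.15 (adjusted p = 0.451) in Sohlh1 KO and 0.25 (adjusted p = 0.225) in Sohlh2 KO.

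Markers of cells that share these genes or adjoin them were set beside them. All 8 markers of vascular mural cells and all 8 of endothelium were tested, with 0 passing in either knockout. The summed signal of the mural markers was 3914 to 4516 in Sohlh1 KO, 3869.9 to 4873 in Sohlh2 KO and 3927 to 4771 in wild type. That of the endothelial markers was 2203 to 2396, 2135 to 2252 and 1893 to 2479 in the same groups. None of 8 fibroblast, 8 Sertoli and 5 tested Leydig markers passed either. All 8 Sertoli markers were above 0 in Sohlh1 KO (median 0.11), against 4 of 8 in Sohlh2 KO (median 0.06). Of all probe sets tested, 50.5% in Sohlh1 KO and 50.6% in Sohlh2 KO lay below 0. Dhh is counted in both the Sertoli and the hedgehog lists. How much of the contractile signal came from vessels and how much from tubule walls was not tested.

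Striated muscle genes were included because stray muscle would bring myosins and actins of its own. Of 12 skeletal muscle genes 5 were too dim to test, and of the other 7 Actn3, a sarcomeric actinin, rose in Sohlh2 KO (434 ± 42.4 against 279 ± 35.5 in wild type, 0.62, adjusted p = 0.0446). This call was lost in 17 of 29 alternatives, among them without the 2 arrays of doubted label (adjusted p = 0.086). Of the 7 skeletal genes tested, 3 lay above 0 and 4 below in Sohlh2 KO, with a median of -0.12. Of 5 cardiac genes 4 were tested, and Myh6, the cardiac alpha myosin heavy chain, fell in both knockouts. Its signal was 205 ± 38.9 in Sohlh1 KO, 204 ± 28.5 in Sohlh2 KO and 434 ± 54.3 in wild type (SD, n = 4 each), with differences of -1.04 (adjusted p = 0.00356) and -1.04 (adjusted p = 0.00457). No value of Myh6 in either knockout reached the wild-type range. The call in Sohlh2 KO was lost in 1 of 29 alternatives (adjusted p = 0.0548 with the replicate block and 3-1 as its own number). The other 3 cardiac genes tested lay above 0 in both knockouts without passing. The median of the 4 was 0.27 in Sohlh1 KO and 0.15 in Sohlh2 KO. Of 10 germ cell genes 5 passed in each knockout, where 2.09% of all probe sets did in Sohlh1 KO and 1.55% in Sohlh2 KO. Crabp1, Kit and Dmrtb1 fell and Gfra1 and Id4 rose in both. This list was chosen with earlier results of these data known, so its count is no measure for the contractile genes. The Gfra1 call in Sohlh2 KO was lost with the replicate block and 3-1 as its own number (adjusted p = 0.102).

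**Figure D5:**
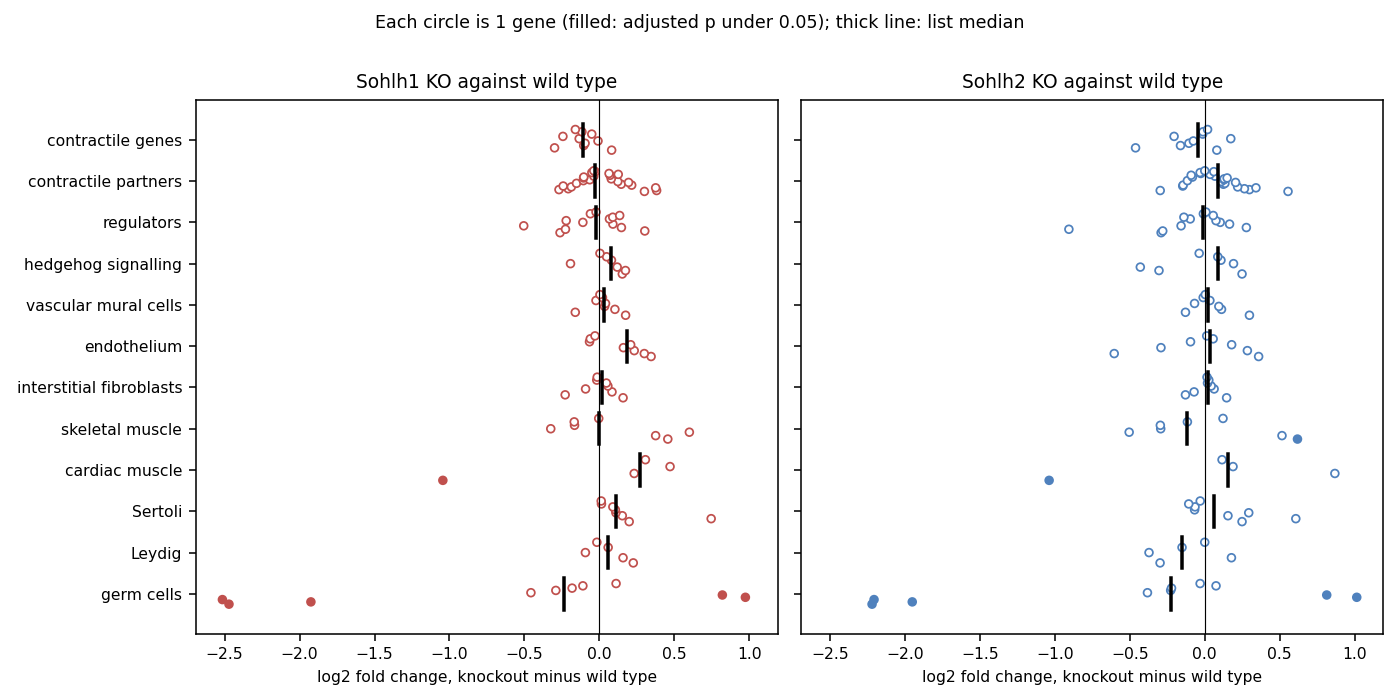
Log2 difference from wild type of the 10 contractile genes and of the genes of 11 other lists, 1 circle per gene at its brightest probe set, filled where adjusted p was under 0.05, with the list median as a thick line; left Sohlh1 KO, right Sohlh2 KO. Filled circles stand in the germ cell and cardiac lists in both panels and in the skeletal list at right. The contractile genes, their partners and the other lists have none. Among contractile genes and partners in Sohlh2 KO, Actg2 lies at -0.46 and Synpo2 at 0.56. The lists were chosen with earlier results of these data known.

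Across the 12 arrays some members varied together and others apart. Over the 45 pairs of members, at their brightest probe sets, the median Pearson r of log2 signals was 0.13, and 28 pairs were above 0. The highest was Myl9 with Tagln (0.744) and the lowest Acta2 with Myh11 (-0.684). With the 2 arrays with the high ratio left out the median was 0.079 over 10 arrays, Acta2 with Myl9 became the highest pair (0.844) and Myh11 with Lmod1 the lowest (-0.78). The arrays share genotype groups and RNA quality, so these are descriptions with no test. The genes most like the members over the 12 arrays, by mean r with the 10 members, were Gne, Kmt5c, Pus7, Plekhm2, Majin and Pprc1 (0.394 to 0.401), and each had a member with which r was negative. On deviations from the group means they were Napb, Myo7a, Ercc1, Commd5, Ric1 and Plxna1 (0.392 to 0.406). With the 2 arrays with the high ratio left out, none of these 12 genes was among the 6 most alike.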

How the data were processed

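The authors deposited 1 table of signal intensities on a linear scale for 45101 probe sets, for which the submitters' processing notes name MAS5 and GCOS, with versions not given here. The trimmed mean of each array (2% cut at each end) is 500. Groups and replicate numbers come from the titles.

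Here 14.2, the 20th percentile of non-control values, was added before log2. Of 45037 non-control probe sets, 28694 exceeded 48.6 (the 40th percentile) on 4 or more of 12 arrays. These entered a limma fit (version 3.58.1, R 4.3.3, genotype only, all arrays in 1 fit, eBayes with trend, two-sided), with Benjamini-Hochberg adjustment over all of them. "Passed", "rose", "fell" and "changed" mean an adjusted p under 0.05. The error behind each p-value is that between pools of 3 testes. The script was tested on simulated data. Symbols come from the platform annotation (34945 probe sets with 1 symbol, 932 with several, 9160 with none). No pair of arrays held identical values, and the highest correlation between arrays was 0.979. Named are all members, every gene of another list that passed, of the contractile partners and regulators, up to 4 genes with the smallest p in each knockout (1 such partner is not reported here), and the 6 genes most like the members. The members, the lists and the arrays of doubted label were chosen with earlier results of these data known. Alternatives changed the offset, normalization, filter, unit, variance model, covariates and arrays. Same-numbered arrays deviated together with r of -0.117 to 0.101, so the numbers were not taken to pair the arrays. Figures were drawn with matplotlib 3.10.9. No probe set coordinates are given, since the array's build is not given.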

Additional observations from a re-analysis of the deposited data

Results flagged for a closer look

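In 4 of 45 groups of 4 arrays checked, over the 13 tested member probe sets and the targeted genes, the lowest array stood far from the other 3. This was judged by Dixon's criterion, which chance alone meets in about 1 of 20 groups. The low values of Sohlh1 and Sohlh2 below are among those by which array labels were doubted. The count of 4 is therefore no measure against chance. Myh11 read 1691 on Sohlh2 KO 1, where the other 3 Sohlh2 KO arrays had 2388 to 2536, and this array had the highest 3' to 5' control ratio. Myh11 also read 2228 on wild type 3, where the other 3 had 2595 to 2618. Sohlh1 read 126 on Sohlh2 KO 1, while its 3 fellow arrays had 465 to 563. Sohlh2 read 94.4 on Sohlh1 KO 5, while its 3 fellow arrays had 1556 to 1783. The cause of these low values was not tested.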

How the results depend on the processing

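Each of 30 alternatives gave 0 contractile probe sets passing in each comparison, with 1 exception: with 1 probe set a gene, the brightest, 1 passed in Sohlh2 KO against wild type (Actg2). The medians stayed below 0 in all alternatives, at -0.14 to -0.02 in Sohlh1 KO and -0.12 to -0.01 in Sohlh2 KO. Of the single differences against wild type, 35 values in Sohlh1 KO and 38 in Sohlh2 KO had the other sign, none of them past the threshold. Actg2 stayed at -0.37 to -0.15 and -0.52 to -0.20, and Tagln at -0.28 to -0.16 and -0.25 to -0.14.

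With the replicate block 0 members passed (lowest adjusted p 0.282 and 0.296, or 0.319 and 0.366 with 3-1 as its own number), while probe sets passing over the whole array numbered 463 and 401, or 338 and 98, against 600 and 445 without it. Those whole-array counts were 343 and 293 without the trend, 1227 and 1075 with array weights, 1230 and 789 with the 3' to 5' ratio as covariate, and 991 and 747 without the arrays of high ratio. They were 488 and 767 without all 3 doubted or high-ratio arrays, 375 for Sohlh1 KO with the mean of a gene's probe sets, 758 and 283 with only the groups compared in the fit, 860 and 458 without the 2 doubted labels, and 230 to 1238 and 202 to 503 leaving out 1 array. Sohlh2 KO against Sohlh1 KO had 9 without the doubted labels, 11 without all 3, and 0 otherwise. The number of arrays limits what could be seen.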
